A study of Homo sapiens with 4 samples.

Results

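The transcriptome of control KGN cells was described from the 2 libraries of the LV-CON group, which are 2 of the 4 libraries of the series. They were chosen by their group label alone. KGN is an established human cell line grown from an ovarian granulosa cell tumor. The LV-CON cells carried a control lentivirus with a puromycin resistance gene, were infected at a dilution of 1:200 and were selected with 2 mg/mL of puromycin, as the labels write it, over 2 passages in DMEM/F12 medium with 10% fetal bovine serum. The levels are therefore those of infected and drug-selected cells of a single line, and uninfected KGN cells were not analysed here. The study asked how overexpression of the transcription factor TOX3 changes KGN cells, and the overexpressing libraries enter no result below. It also knocked out TOX3 in KGN cells, and none of the 4 libraries is labelled as coming from those cells. The labels do not say whether the 2 libraries came from separate cultures, so the spread between them may be technical.

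Granulosa cells surround the oocyte in the ovarian follicle. Under follicle-stimulating hormone (FSH) they convert androgens, which are made by the neighbouring theca cells, into estrogens with the enzyme aromatase, encoded by CYP19A1. They also secrete inhibins, activins and anti-Mullerian hormone, and their identity in the adult ovary is held by the transcription factor FOXL2, whose loss lets genes of testicular Sertoli cells come on. Granulosa cell tumors combine features of epithelium and of stroma, and pathologists recognise them by a small panel of markers.

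Levels are given as RPKM, that is reads per kilobase of gene corrected for the size of the library, for replicate 1 and then replicate 2. A gene was called detected when it had at least 1 RPKM in both libraries. The library totals were recovered from the RPKM values, as 17757132 and 17858746 reads, and so were the reads per gene, as whole numbers. Recovered reads in genes of the table made up 98.2% of each total, a share that is not a mapping rate. A gene with 0 reads could have had up to 3, and this limit is given as an RPKM value where it matters. Intervals and limits cover counting error only. In total, 11680 of 33880 genes (34.5%) were detected, among them 10407 of 16815 protein-coding genes (61.9%). Another 1394 protein-coding genes (8.29%) had 0 reads in both libraries, and 3863 (23.0%) reached 10 RPKM in both. The median protein-coding gene had a mean level of 2.94 RPKM.

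The replicates ranked the genes alike but were not copies of each other. Over the 11680 detected genes the log2 ratio of replicate 2 to replicate 1 had an SD of 0.27, and 105 genes (0.899%) were more than 2-fold apart. The SD of that ratio was 0.29 for protein-coding genes with a mean of 1 to 3 RPKM and 0.15 for those at 100 RPKM or more, so the order of low genes is less certain. Below, neighbours in an order are called separate only where the lower value of one lies above the higher value of the other.

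The most abundant transcripts came from the mitochondrial genome and from nuclear genes of the cytoskeleton, iron storage, translation and the extracellular matrix. Of the 20 most abundant protein-coding genes, 12 were mitochondrial, led by MT-CO1, a subunit of cytochrome c oxidase, at 13772 and 14638 RPKM. The 13 mitochondrial genes made up 19.8% and 21.0% of the summed RPKM of protein-coding genes, but 5.56% and 5.92% of their reads, because RPKM divides by their short lengths. MT-CO2 followed with 10464 and 10784 RPKM, separate from both MT-CO1 and MT-ND4. MT-ND4 (5796 and 6653 RPKM), a subunit of complex I, and MT-CO3 (5905 and 5838 RPKM), another oxidase subunit, overlapped. The other mitochondrial genes among the 20 were MT-ATP6, MT-ND5, MT-ND3, MT-ND2, MT-ND4L, MT-CYB, MT-ND6 and MT-ND1, between 1379 and 2649 RPKM in the individual libraries. The strand setting of the counting is not given in the sources used here, so reads of MT-ND6 and of the genes opposite it cannot be told apart.

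The highest nuclear gene was TMSB10, which encodes the actin-binding peptide thymosin beta 10, at 4170 and 3763 RPKM. Its relative TMSB4X had 1341 and 1326 RPKM, and cytoplasmic actin ACTB had 1623 and 1863 RPKM. FTL, the light chain of the iron store ferritin, had 2601 and 1909 RPKM, the widest gap between replicates as a ratio among the 20 genes. The elongation factor EEF1A1, which carries transfer RNA to the ribosome, had 2084 and 1936 RPKM. COL1A1, the main chain of type I collagen (chromosome 17, 50184101 to 50201632, hg38), had 1326 and 1401 RPKM. S100A6, a calcium-binding protein, had 1233 and 1198 RPKM, and CTGF, a matrix-associated growth factor and target of the YAP1 coactivator, had 1096 and 874 RPKM. All 12 mitochondrial genes of the 20 had higher means than COL1A1. Of the 19 pairs of neighbours in this order, 8 were separate.

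Just below these stood genes of lipid synthesis, the matrix and the ribosome. The fatty acid desaturase SCD had 1161 and 769 RPKM, so its replicate 1 value lay above that of CTGF and its replicate 2 value below. SPARC, a collagen-binding matrix protein, had 676 and 672 RPKM, and the matrix glycoprotein THBS1 had 529 and 664 RPKM. No cytosolic ribosomal protein gene was among the first 20, while 10 were among the first 50 and 25 among the first 100. Of the 79 such genes, 78 were detected, with a median of 128 RPKM. Reads shared with processed pseudogenes can lower such values: 11 annotated RPS2 pseudogenes held 9533 and 9038 reads, 23.4% and 25.1% of the reads of RPS2 itself. The 20 highest genes made up 25.9% and 26.7% of the protein-coding RPKM, and the 1000 highest made up 65.7% in both libraries.

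**Figure D1:**
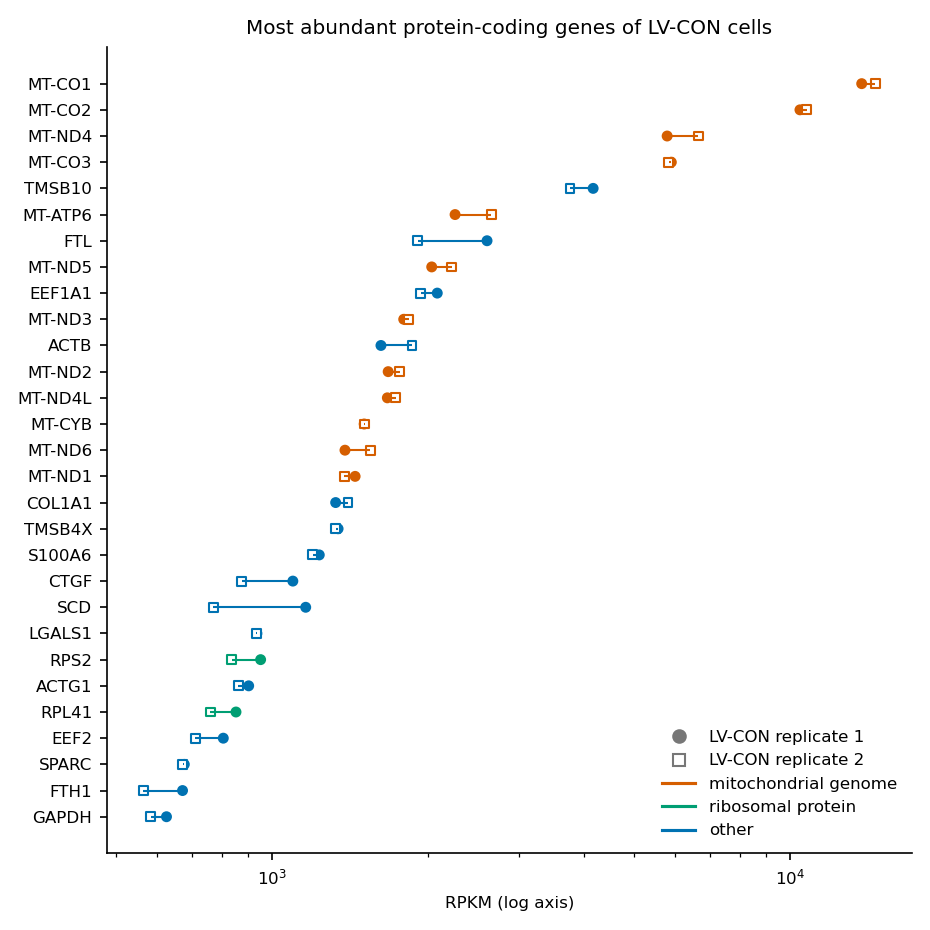
Levels of genes among the 30 most abundant protein-coding genes, in RPKM on a log axis, with a filled circle for LV-CON replicate 1, an open square for replicate 2 and a line joining them. Mitochondrial genes (orange) fill the first 4 places, TMSB10 at 4170 and 3763 RPKM is the highest nuclear gene, and the values of FTL and SCD lie furthest apart on the log axis.

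Some of the abundant messages, above all those of ribosomal protein genes, begin in the same way. Messages of the translation machinery typically start with a C followed by a run of C and T, the 5′ terminal oligopyrimidine tract, through which the cell couples their translation to growth signals. Start sites were read from the RefSeq promoter table (GRCh38.p14) for the 9569 protein-coding genes of the table that have 1 start there. Each window below holds the 15 bases before the start in lower case and the first 15 transcribed bases in capitals. The first 5 belong to translation genes and the last 4 to other abundant genes, picked as examples of a contrast in the first few capitals. The contrast has exceptions among abundant genes that are not shown. RPS4X, RPL10A and RPL4 start with A, RPL41 starts with C but has a G at base 6, and ACTG1 starts with C.
EEF1A1, chr6:73521018-73521047, minus strand: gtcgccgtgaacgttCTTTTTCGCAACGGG
EEF2, chr19:3985449-3985478, minus strand: gttgacgtcagcgttCTCTTCCGCCGTCGT
RPS12, chr6:132814554-132814583, plus strand: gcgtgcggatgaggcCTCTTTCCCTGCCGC
RPL7A, chr9:133348203-133348232, plus strand: ccacaattccctttcCTTTCTCTCTCCTCC
RPLP0, chr12:120201097-120201126, minus strand: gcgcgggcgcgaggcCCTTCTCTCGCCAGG
TMSB10, chr2:84905641-84905670, plus strand: gggcgccgctcttttGTTTCTTGCTGCAGC
FTL, chr19:48965294-48965323, plus strand: tagccacgtcccctcGCAGTTCGGCGGTCC
SPARC, chr5:151686901-151686930, minus strand: ttcccgcggtccttcAGACTGCCCGGAGAG
GAPDH, chr12:6535249-6535278, plus strand: agcgggtgcatccctGTCCGGATGCTGCGC

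A start with C and then only C or T up to base 6, read on the transcribed strand, was found in 40 of the 53 ribosomal protein genes with 1 start (75.5%), against 3.93% of all 9569 genes. Among the 154 genes of that set at 100 RPKM or more the share was 22.7%, and it was 8.26% when their ribosomal protein genes were left out. The ribosomal protein genes were picked by name and their level did not enter that choice.

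A different letter pattern was found at both ends of the ranking. TATAAA, on the transcribed strand and between 50 and 11 bases before the start, was present in 9.61% of genes with 0 reads in both libraries, in 1.06% of detected genes with a mean under 10 RPKM and in 8.44% (13 of 154) of genes at 100 RPKM or more, against 3.46% of all 9569 genes. The 4 windows below, from CTGF, EEF2, RPLP0 and MT2A, which encodes a metal-binding metallothionein, have the TATAAA in capitals. Its first base lies 32, 30, 27 and 29 bases before the start.
CTGF, chr6:131951387-131951416, minus strand: ccgcccggagcgTATAAAagcctcgggccg
EEF2, chr19:3985476-3985505, minus strand: ccggcgtccgccTATAAAaagctgagtgtt
RPLP0, chr12:120201121-120201150, minus strand: ctttgttcgcatTATAAAaggcacgcgcgg
MT2A, chr16:56608543-56608572, plus strand: gctctttctagcTATAAAcactgcttgccg

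The CpG content of the 300-base promoters was lower for genes with 0 reads than for detected genes. The median ratio of observed to expected CpG was 0.354 for genes with 0 reads and 0.62 for those below 1 RPKM, against 0.811 for all 9569 genes. It was 0.865 for detected genes under 10 RPKM, 0.881 at 10 to 100 RPKM and 0.872 at 100 RPKM or more, so above the detection level it no longer moved with the level. A match describes these letters only and does not show which start the cells used.

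**Figure D2:**
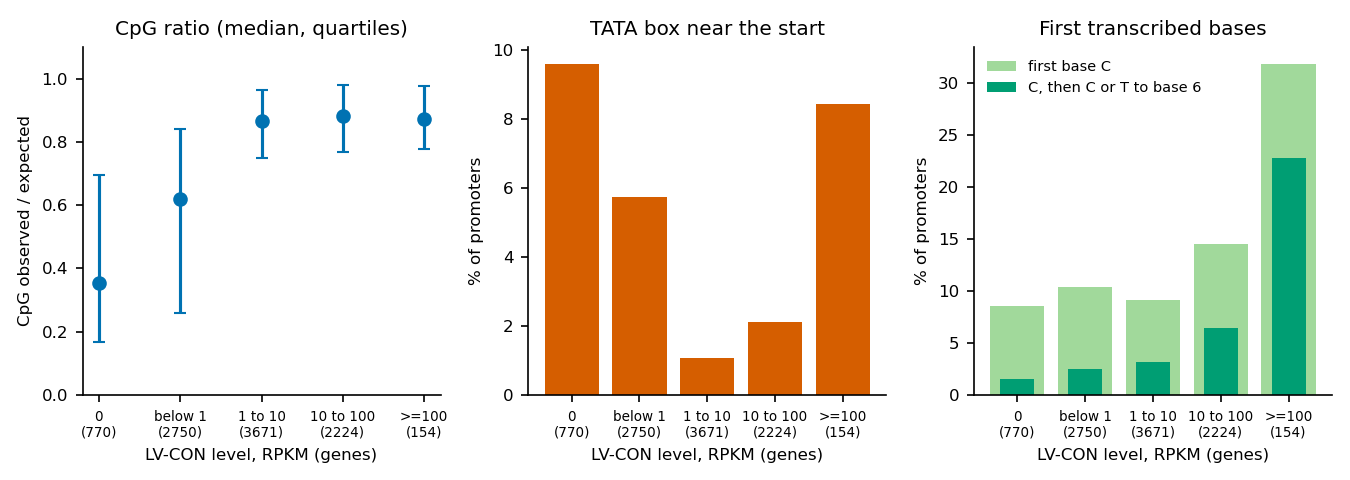
Promoter letters by LV-CON level for the 9569 protein-coding genes with 1 RefSeq start, with the number of genes under each class: median CpG ratio with quartiles (left), share with TATAAA near the start (middle) and share starting with C or with C and a pyrimidine run (right, nested bars). The CpG ratio levels off at 0.865 to 0.881 in detected genes, whereas the TATA share is high at both ends and the pyrimidine start reaches 22.7% in the highest class.

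Lists of markers, receptors, enzymes and transcription factors were then read against this ranking. The 21 lists named 555 different genes, of which 508 had a row in the table. Of these, 266 were detected, 187 lay below the detection level in at least 1 library and 55 had 0 reads in both. Over all protein-coding genes the shares were 61.9% detected and 8.29% at 0. The 47 genes without a row have no level here, though some of them, such as IHH and EMX2, enter the promoter search below. In a bulk library, few cells with much of an RNA and many cells with little of it cannot be told apart.

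**Figure D3:**
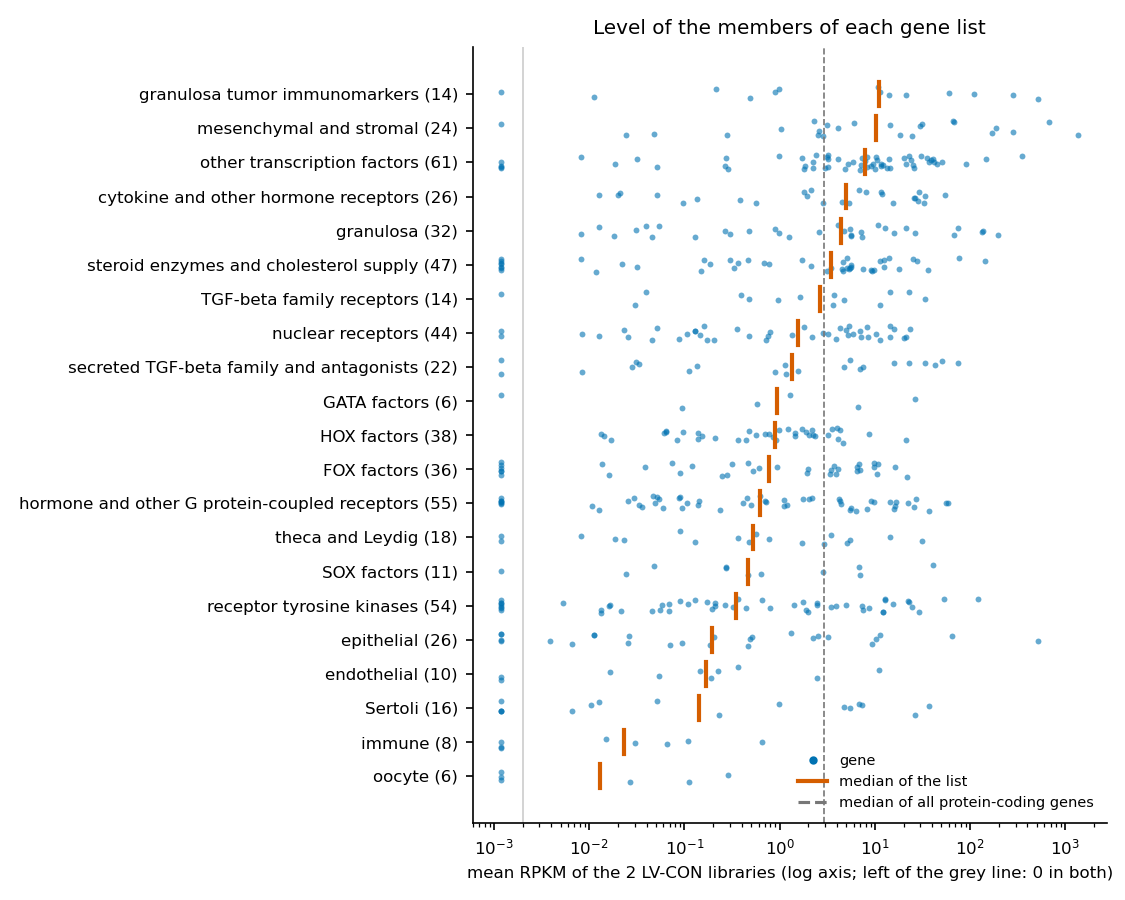
Mean RPKM of the 2 LV-CON libraries on a log axis for each member of the 21 lists (number of members with a row in brackets), with the median of the list as an orange bar and the median of all protein-coding genes, 2.94 RPKM, as a dashed line. The tumor immunomarker and mesenchymal lists have the highest medians (10.9 and 10.3 RPKM) and the oocyte and immune lists the lowest.

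Of 10 defining markers of granulosa cells, 7 were detected. The list was drawn up with earlier results of these data known, so it is no independent check of the cell label. The list as a whole had 18 of 32 members detected (56.25%, against 61.9% of all protein-coding genes), with a median of 4.38 RPKM, and no member had 0 reads in both libraries. FST, which encodes the activin antagonist follistatin (chromosome 5, 53480626 to 53487134), was the highest defining marker at 78.2 and 70.1 RPKM. INHBA, the beta A subunit of activin A and inhibin A, had 16.1 and 15.8 RPKM. FOXL2 (chromosome 3, 138944224 to 138947137) had 10.5 and 10.9 RPKM, a level above that of 77.3% of protein-coding genes. These 3 genes were separate from each other and from those below, so their order holds in both libraries.

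The markers tied to FSH and estrogen came next. CYP19A1 (chromosome 15, 51208057 to 51338601), the aromatase gene, had 7.08 and 4.25 RPKM from 1061 and 640 reads, a wide gap between the replicates among the markers. FSHR (chromosome 2, 48962157 to 49154527), the receptor for FSH, had 5.15 and 5.95 RPKM, and INHBB, the beta B subunit, had 5.26 and 5.63 RPKM. These 3 genes overlapped and have no certain order. AMH, anti-Mullerian hormone (chromosome 19, 2249309 to 2252073), followed by mean with 4.40 and 5.02 RPKM, separate from INHBB and FSHR. It overlapped with CYP19A1 and lay above it in replicate 2.

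The other defining markers fell short of detection. INHA, the alpha subunit shared by both inhibins and the usual serum and tissue marker of these tumors, had 1.09 and 0.703 RPKM from 34 and 22 reads, with an exact 95% Poisson interval of 0.678 to 1.16 RPKM over both libraries. INHBA stood 14.8 and 22.5 times above INHA per length. Inhibins need the alpha subunit and activins are made of beta subunits alone, so of the RNAs for this hormone family the activin subunits and their antagonist follistatin were the abundant ones. HSD17B1, which turns estrone into estradiol, had 0.319 and 0.277 RPKM, though its value is uncertain. The gene length implied by its RPKM, 5658 bases, exceeds the annotated gene, and its neighbouring pseudogene held 24 and 28 reads beside the 32 and 28 of the gene. AMHR2, the receptor for AMH, had 4 and 1 reads, so the hormone was detected and its own receptor was not.

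Of the other granulosa genes, the most abundant were not restricted to this cell type. SERPINE2, a secreted protease inhibitor, had 208 and 180 RPKM, GJA1, the gap junction protein connexin that couples granulosa cells, had 140 and 132 RPKM, the secreted protease HTRA1 had 149 and 119 RPKM, and CDH2, N-cadherin, had 67.0 and 68.0 RPKM. The gonadal factors GATA4 (27.0 and 26.2 RPKM) and NR5A1 (21.2 and 21.7 RPKM) were also well detected. NR5A1, or steroidogenic factor, switches on steroid genes, and its close relative NR5A2, which prevails in granulosa cells of the follicle, had 22 and 13 reads. The estrogen receptor ESR2, the main one of normal granulosa cells, had 10 and 5 reads. The lowest detected member was IRX3, a homeobox factor, at 2.26 and 2.89 RPKM. Just outside lay WNT4, an ovarian signalling factor, at 0.784 and 1.69 RPKM, and WT1, the Wilms tumor factor, at 1.095 and 0.885 RPKM, each past 1 RPKM in a single library.

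The panel of tumor immunomarkers had 8 of 14 members detected (57.1%, close to the 61.9% of all protein-coding genes). VIM, the intermediate filament vimentin, had 307 and 253 RPKM, CD99, a membrane glycoprotein, had 116 and 104 RPKM, and NCAM1, the adhesion molecule CD56, had 62.8 and 57.7 RPKM. With FOXL2 and NR5A1 these were the detected ones among the 8 defining members, 5 in all. Below detection lay INHA and WT1, given above, and CALB2, calretinin, with 6 and 7 reads. Inhibin alpha and calretinin are the markers most used to diagnose these tumors. Among the others, KRT18 and KRT8 are given with the epithelial genes, and SMAD3, a TGF-beta signal transducer and partner of FOXL2, had 14.3 and 13.8 RPKM. MUC1, an epithelial mucin, had 50 and 32 reads, EPCAM had 1 and 0 reads, and DES, the muscle filament desmin, had 0 reads in both (limits of 0.0686 and 0.0682 RPKM).

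Theca and Leydig cells make the androgens that granulosa cells convert. Of 18 genes with a row, 7 were detected (38.9%, against 61.9%), with a median of 0.524 RPKM. STAR, which moves cholesterol into the mitochondrion, was the single defining member detected, at 5.91 and 4.18 RPKM. CYP17A1, the enzyme that makes androgens, had 0 and 1 reads, and INSL3, the hormone of theca and Leydig cells, had 0 reads in both (limits of 0.183 and 0.182 RPKM). HSD3B2 had 0.892 and 0.647 RPKM, and LHCGR, the receptor for luteinizing hormone, had no row in the table used here. The other detected members were MGARP, a mitochondrial protein induced by low oxygen and hormones (33.2 and 29.0 RPKM), NR2F2, a nuclear receptor of stromal cells (14.9 and 13.7 RPKM), the electron carrier FDX1 (5.67 and 5.33 RPKM), PDGFRA, a growth factor receptor of stromal cells (3.80 and 3.10 RPKM), GLI1, the readout of hedgehog signalling (2.64 and 3.197 RPKM), and CYB5A, given with the steroid enzymes. PTCH1, another hedgehog target, had 0.567 and 0.574 RPKM.

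Sertoli cells are the testicular counterpart of granulosa cells. Of 16 genes with a row, 6 were detected (37.5%, against 61.9% of all protein-coding genes), but 4 of these, GATA4, KITLG, INHBB and AMH, are also on the granulosa list. KITLG, the ligand of the KIT receptor, had 7.54 and 7.06 RPKM. SOX9, the switch gene of Sertoli cells and a gene that FOXL2 keeps off in the adult mouse ovary, had 6.30 and 7.27 RPKM, so both factors were detected in the same libraries. FOXL2 stood above SOX9 in each. CLDN11, the tight junction protein of the blood-testis barrier, had 41.2 and 32.7 RPKM. The other defining members were at the floor: DMRT1, a factor that maintains testis fate, had 4 and 2 reads, PTGDS, a prostaglandin synthase, had 0 and 1, and DHH, the hedgehog ligand of Sertoli cells, had 0 in both (limits of 0.0873 and 0.0868 RPKM). SOX8 had no row.

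**Figure D4:**
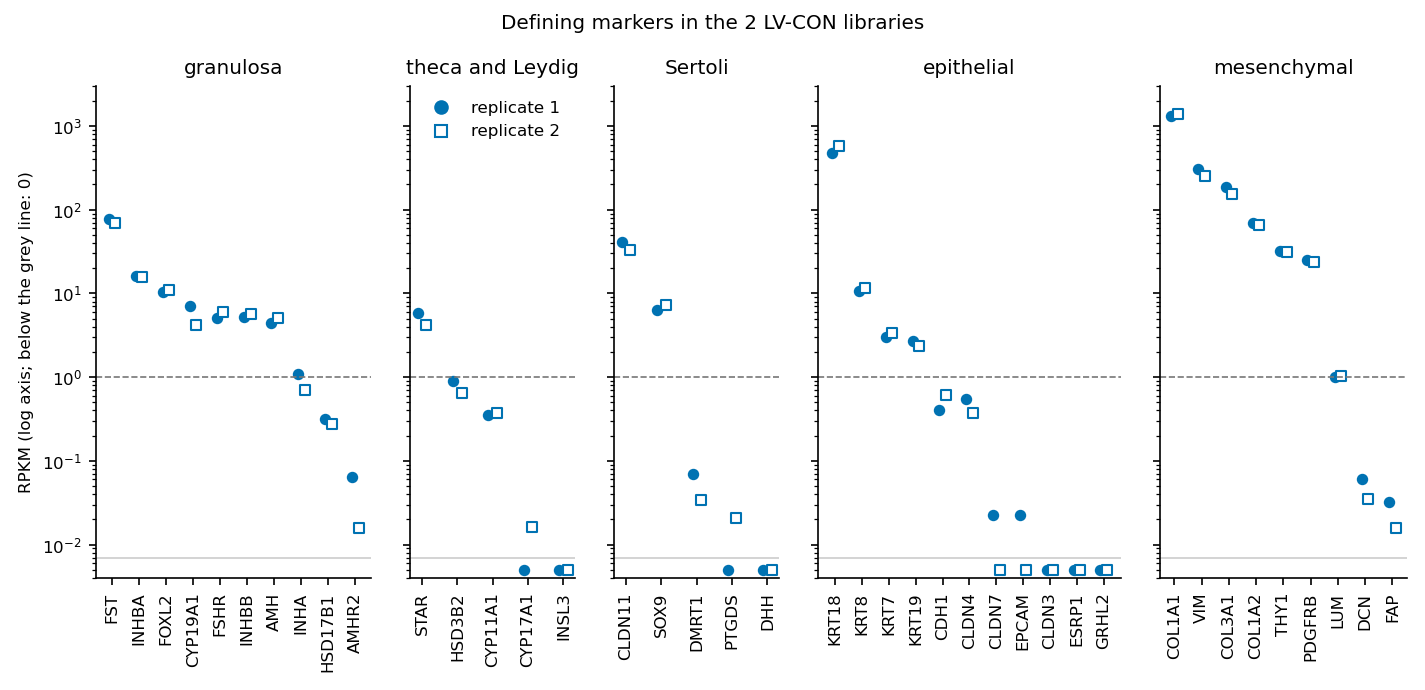
Defining markers of 5 cell types in LV-CON replicate 1 (filled circles) and replicate 2 (open squares), in RPKM on a log axis, with the detection level of 1 RPKM as a dashed line and symbols below the grey line at 0. Of the granulosa markers, 7 lie above the dashed line, whereas CYP17A1, INSL3, DHH, PTGDS and EPCAM lie at or near 0 and COL1A1 and KRT18 reach the highest levels.

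Among epithelial genes KRT18 stood far above the rest. Of 26 genes, 9 were detected (34.6%, against 61.9% of all protein-coding genes), with a median of 0.195 RPKM. KRT18, a keratin of simple epithelia (chromosome 12, 52948871 to 52952906), had 469 and 573 RPKM, rank 36 among protein-coding genes. KRT8, its obligate filament partner next to it on the chromosome, had 10.7 and 11.7 RPKM. The ratio was 43.7 and 49.2 per length but 10.2 and 11.5 in reads, because the RPKM of KRT8 was divided by 6881 bases of merged exons and that of KRT18 by 1609. Pseudogenes of KRT8 held a further 89 and 111 reads. In the annotation, KRT8 (52897187 to 52949954) overlaps the start of KRT18, and reads there cannot be told apart. KRT7 (2.999 and 3.37 RPKM) and KRT19 (2.70 and 2.37 RPKM), other keratins of simple epithelia, were low but detected, and the surface glycoprotein CD24 (61.9 and 66.0 RPKM), the desmosomal linker DSP (10.2 RPKM in both) and the laminin chain LAMB3 (10.4 and 8.10 RPKM) completed the higher members.

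The defining adhesion molecules, claudins and regulators of epithelium were below detection. CDH1, E-cadherin, had 44 and 68 reads (0.401 and 0.616 RPKM), and N-cadherin stood 167 and 110 times above it per length. EPCAM, the epithelial adhesion molecule, had 1 and 0 reads (limit of 0.0667 RPKM in replicate 2). The claudins CLDN4 (46 and 31 reads) and CLDN7 (1 and 0 reads) were low, and CLDN3, the splicing factor ESRP1 and the transcription factor GRHL2 had 0 reads in both. PAX8, a factor of the Mullerian epithelium, had 2.06 and 2.41 RPKM, and PKP3, a desmosomal plakophilin, was nearest to the detection level from above at 1.26 and 1.35 RPKM.

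The mesenchymal list was the fullest of the cell type lists, with 20 of 24 members detected (83.3%, against 61.9%) and a median of 10.3 RPKM. Beside COL1A1, SPARC and VIM it held fibronectin FN1 (203 and 173 RPKM), the collagen chain COL3A1 (184 and 153 RPKM), THY1, a surface protein of stromal cells (32.0 and 30.9 RPKM), and PDGFRB, a growth factor receptor of stromal cells (24.8 and 23.9 RPKM). The 2 chains of type I collagen were unequal: COL1A2 had 68.5 and 64.9 RPKM, and COL1A1 stood 19.4 and 21.6 times above it. Of the factors that drive a mesenchymal state, SNAI2 (30.7 and 28.5 RPKM), TWIST1 (18.8 and 17.7 RPKM) and ZEB1 (6.07 and 5.99 RPKM) were detected and SNAI1 was not (8 and 9 reads). The stromal genes LUM (1.01 and 1.04 RPKM), DCN (14 and 8 reads) and FAP (4 and 2 reads) were low, and POSTN, periostin, had 0 reads in both.

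Markers of other cells of the ovary were sparse beside the 61.9% of all protein-coding genes that were detected. Of 10 endothelial genes, EGFL7, a secreted vessel factor (12.7 and 9.63 RPKM), and KDR, a receptor for vascular growth factor (2.65 and 2.27 RPKM), were detected, while the defining cadherin CDH5 and the receptor TIE1 had 0 reads. None of 8 immune genes was detected, the highest being PTPRC, the leukocyte antigen CD45, with 81 and 114 reads (0.545 and 0.763 RPKM). None of 6 oocyte genes was detected, the highest being the zona pellucida gene ZP3 with 17 and 11 reads. These counts depend on the cutoff: 1 immune gene passed at 0.5 RPKM, and 1 immune and 1 oocyte gene passed at 10 reads in both libraries.

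The steroid list was read in the order of the pathway, from cholesterol to estrogen. It had 27 of 47 members detected (57.4%, against 61.9%), with a median of 3.45 RPKM. Supply of cholesterol was well covered: TSPO, a mitochondrial membrane protein, had 143 and 144 RPKM, and NPC2, which exports cholesterol from lysosomes, had 90.9 and 62.2 RPKM. STAR overlapped with CYP19A1 and HSD3B1 at the levels given. CYP11A1, the side-chain cleavage enzyme that makes pregnenolone, then had 0.355 and 0.369 RPKM from 22 and 23 reads, whereas its electron donors FDX1 and FDXR (9.61 and 10.0 RPKM) were detected.

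The middle of the pathway was uneven. HSD3B1, which makes progesterone from pregnenolone, had 4.22 and 6.56 RPKM and stood 4.73 and 10.1 times above its near-identical copy HSD3B2, with which it may share reads. The androgen step was missing from the detected genes, since CYP17A1 had 0 and 1 reads. CYP21A2 and CYP11B1, enzymes of the adrenal branch, had 0 reads in both, and CYP11B2 had no row. At the estrogen end, CYP19A1 stood 20 and 11.5 times above CYP11A1. Of the enzymes that reduce androstenedione or estrone, AKR1C3 (28.0 and 27.6 RPKM) stood 88.0 and 99.6 times above HSD17B1 per length. In reads the ratio was 70.5 and 79.8, and the HSD17B1 value is uncertain, as said above. Other HSD17B genes, HSD17B7 and HSD17B12 among them, were also detected. AKR1C3 belongs to a family of close copies, AKR1C1 (4.78 and 4.41 RPKM) and AKR1C2 (0.706 and 0.676 RPKM) among them, which may also share reads. CYB5A, an electron donor of CYP17A1, was the detected member nearest to the detection level at 1.74 and 1.67 RPKM.

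**Figure D5:**
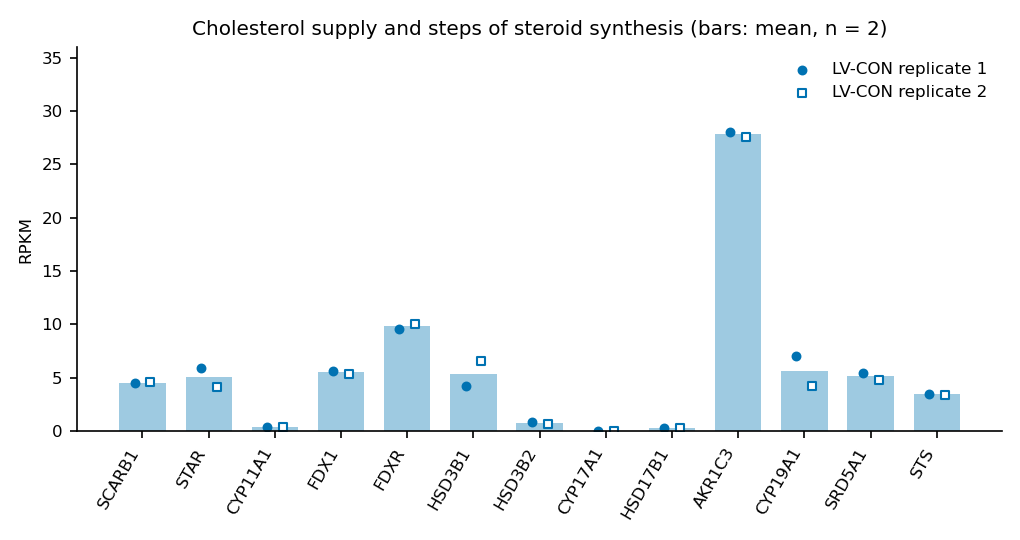
Levels of 13 genes from cholesterol supply to estrogen synthesis, in RPKM from 0, with bars for the mean of the 2 LV-CON libraries, filled circles for replicate 1 and open squares for replicate 2. AKR1C3 is the highest bar, while CYP11A1, HSD3B2, CYP17A1 and HSD17B1 lie below 1 RPKM.

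CYP19A1 is read from alternative first exons in different tissues, and the one nearest to the coding region serves the ovary, where NR5A1 and NR5A2 bind an AAGGTCA element. The RefSeq table lists 7 starts for it. The 250 bases before the start nearest to the coding region, chr15:51243030-51243279 on the minus strand (GRCh38.p14), are shown because both this gene and NR5A1 were detected, with AAGGTCA in capitals, whose first base lies 131 bases before the start.
CYP19A1: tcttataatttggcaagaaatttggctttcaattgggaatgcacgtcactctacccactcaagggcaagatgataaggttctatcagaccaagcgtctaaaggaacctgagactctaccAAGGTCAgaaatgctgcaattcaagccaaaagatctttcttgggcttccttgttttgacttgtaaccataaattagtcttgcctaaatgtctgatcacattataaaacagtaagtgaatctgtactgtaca

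Searched on both strands from 250 bases before to 50 bases after every listed start, AAGGTCA was present in 2 of the 27 granulosa genes and 4 of the 36 steroid genes that have a promoter in the table, against 4.11% of the 13306 protein-coding genes with any. The other granulosa gene was ESR2, whose match lies after the start. A motif that GATA factors bind, searched as the letters AGATAA in the same way, was present in 6 of 27 granulosa genes and 8 of 36 steroid genes, against 9.13%. The RPKM of a gene sums over its starts, so these data do not show which was in use.

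Steroid and other nuclear receptors had 23 of 44 members detected (52.3%, against 61.9% of all protein-coding genes). The highest were NR1H2, a sensor of oxysterols (25.3 and 21.9 RPKM), NR5A1, RXRB, a partner of many receptors (20.3 and 19.8 RPKM), and NR3C1, the glucocorticoid receptor (15.7 and 15.9 RPKM). Of the sex steroid receptors, PGR, the progesterone receptor, had 1.94 and 1.64 RPKM. ESR1, the estrogen receptor alpha, had 31 and 32 reads (0.126 and 0.129 RPKM). Neither estrogen receptor was therefore detected. NR1H3, another oxysterol sensor (1.13 and 1.54 RPKM), and NR3C2, the mineralocorticoid receptor (0.921 and 0.653 RPKM), lay on either side of the detection level.

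Of the gonadotropin receptors, FSHR was detected, while LHCGR had no row and so no level. TSHR, the related thyrotropin receptor, had 0 reads, and GNRHR, the receptor for gonadotropin-releasing hormone, had 0 and 4 reads. The wider list of G protein-coupled receptors had 25 of 55 members detected (45.5%, against 61.9%). Its highest members were F2R, a receptor for thrombin (63.0 and 53.3 RPKM), ACKR3, a scavenger of chemokines (51.5 and 60.3 RPKM), F2RL1, a receptor for trypsin-like proteases (40.6 and 33.4 RPKM), and the Wnt receptor FZD6 (27.7 and 26.5 RPKM). OXTR, the oxytocin receptor, had 16.5 and 15.2 RPKM and PTGFR, the receptor for prostaglandin F, had 9.07 and 7.53 RPKM. Both act on luteal or uterine cells.

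Receptor tyrosine kinases had 23 of 54 members detected (42.6%, against 61.9%). AXL, the receptor for the ligand GAS6, was the highest at 111 and 132 RPKM, followed by DDR2, which senses fibrillar collagen (54.2 and 51.7 RPKM), and EPHA2, an ephrin receptor (26.3 and 31.6 RPKM). PDGFRB, MET, the receptor for hepatocyte growth factor (22.8 and 22.9 RPKM), and EGFR, the receptor for epidermal growth factor (21.7 and 22.5 RPKM), followed closely. KIT, the receptor of oocytes and theca for the KITLG ligand detected above, had 8 and 3 reads. INSR, the insulin receptor, lay just inside the detection level (1.59 and 1.24 RPKM) and ROR2, a Wnt co-receptor, just outside it (0.900 and 0.674 RPKM).

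Receptors of the TGF-beta family had 8 of 14 members detected (57.1%, close to the 61.9% of all protein-coding genes). The co-receptor ENG had 32.1 and 34.98 RPKM, TGFBR2, which binds TGF-beta, had 24.4 and 21.2 RPKM, and the BMP receptors ACVR1 and BMPR2 had 16.0 and 13.2 RPKM and 11.3 and 11.5 RPKM. TGFBR1 (4.86 and 4.66 RPKM), BMPR1A (3.76 and 3.66 RPKM), ACVR1B (3.95 and 3.36 RPKM) and the activin receptor ACVR2A (1.69 and 1.60 RPKM) were lower. BMPR1B, a receptor that granulosa cells use for oocyte signals, had 72 and 36 reads, ACVR2B had 121 and 99, ACVR1C had 5 in both and ACVRL1, an endothelial receptor, had 0 in both. TGFBR3, betaglycan, which presents inhibin to activin receptors, lay just outside detection at 1.15 and 0.791 RPKM.

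Among the secreted factors of this family, 13 of 22 were detected (59.1%, again close to 61.9%). FST was the highest, followed by TGFB1 (48.4 and 53.0 RPKM), FSTL3, another activin antagonist (41.4 and 44.7 RPKM), and BMP4 (33.5 and 34.4 RPKM). GDF15, a stress-induced factor, had 25.9 and 19.6 RPKM. BMP6, which granulosa cells secrete, lay near the detection level at 1.24 and 1.09 RPKM, and BMP2 had 1 and 3 reads. Both activin antagonists were thus more abundant than INHBA in each library.

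Cytokine and other hormone receptors had 18 of 26 members detected (69.2%, against 61.9%). TNFRSF1A, a receptor for tumor necrosis factor, had 58.5 and 50.7 RPKM, and NOTCH2 had 32.1 and 35.3 RPKM, IFNGR1, a chain of the interferon gamma receptor, 33.4 and 32.1 RPKM, and ADIPOR1, a receptor for adiponectin, 29.8 and 28.5 RPKM. The prolactin receptor PRLR (5 and 7 reads) and the growth hormone receptor GHR (2 and 1 reads) were not detected.

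Of the GATA factors, GATA4 stood 4.13 and 3.96 times above GATA6 (6.55 and 6.63 RPKM), another gonadal member. GATA2, a blood and endothelial factor, had 1.45 and 1.13 RPKM, GATA3 had 10 and 1 reads, GATA5 had 14 and 39, and GATA1 had 0 in both. Of 11 SOX factors, 4 were detected (36.4%, against 61.9% of all protein-coding genes), with SOX4 (42.7 and 38.9 RPKM) above SOX12 (7.18 and 6.86 RPKM), SOX9 and SOX13 (2.65 and 3.05 RPKM). Of 36 forkhead factors, 17 were detected (47.2%, against 61.9%). FOXM1, a driver of mitosis, was the highest at 20.4 and 22.9 RPKM, FOXS1 had 13.2 and 19.5 RPKM, and FOXL2 overlapped with the broadly expressed FOXJ3 (10.2 and 10.8 RPKM). FOXO1, which FSH signalling restrains in granulosa cells, had 1.99 and 1.92 RPKM.

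HOX factors, which record position along the body axis, had 17 of 38 members detected (44.7%, against 61.9% of all protein-coding genes). HOXB7 was the highest at 20.9 and 21.3 RPKM, followed by HOXC9 (9.83 and 7.70 RPKM), HOXB9 (5.00 and 4.34 RPKM) and HOXC13 (3.998 and 4.69 RPKM). HOXA9, HOXA10 and HOXA11, which pattern the Mullerian tract, had 10 and 5, 61 and 51, and 2 and 3 reads.

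The remaining transcription factors were the fullest list of regulators, with 49 of 61 detected (80.3%, against 61.9% of all protein-coding genes) and a median of 7.86 RPKM. ATF4, which responds to amino acid and unfolded protein stress, had 359 and 343 RPKM, HIF1A, the oxygen-regulated factor, had 150 and 145 RPKM, HMGA1, a chromatin protein, had 94.6 and 85.3 RPKM, and FOSL1, a member of the AP-1 family, had 49.3 and 53.2 RPKM. TOX3 itself (chromosome 16, 52436417 to 52547802) had 0 reads in both libraries, with limits of 0.0336 and 0.0334 RPKM. Its relatives TOX4 (10.6 and 10.4 RPKM) and TOX2 (5.71 and 4.81 RPKM) were detected, and TOX had 14 and 26 reads. RNA of the gene under study was thus not detectable in the control cells at this depth. The authors nevertheless reported lower viability and estrogen production after knocking out TOX3 in KGN cells. How that relates to the 0 reads here was not tested.

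Of the 266 detected members, 3 were more than 2-fold apart between the replicates, against 0.899% of all detected genes, so such gaps were about as rare among them. The immediate-early factors EGR1 and FOS, which serum and handling induce within minutes, had 22.1 and 6.89 RPKM and 17.6 and 2.46 RPKM, so both were higher in replicate 1. The third was FOXO6 at 1.22 and 2.73 RPKM. Among their relatives, JUNB had 11.7 and 6.55 RPKM, whereas JUN had 39.1 and 41.9 RPKM. No single baseline level can be given for EGR1 and FOS from these libraries.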

How the data were processed

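RNA of the 2 LV-CON libraries was poly(A)-enriched and sequenced in paired reads. The authors used SOAPnuke to filter reads, HISAT2 with the hg38 genome for alignment and expectation maximization for gene levels, in versions not given in the sources used here. ComBat was used against batch effects, and whether it touched the RPKM values is not stated. The deposited unit is RPKM, without counts. All sample columns had a sample (0 without), and the LV-TOX3 columns served only to recover reads.

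Whole reads in all 4 libraries were recovered for 29087 of 29088 genes above 0, at an absolute tolerance of 2e-06 on a whole read. The gene length equalled the merged exons of GENCODE 44 for 12996 genes. For others the smallest length giving whole reads was taken, so their reads are minimum estimates. Expectation maximization need not give whole reads. On simulated data of 2469 genes, 4 of 4 totals were recovered, with exact reads for 100% of genes when the length was known and 96.4% when it was not.

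Over 14961 genes with at least 20 reads, chi-square per degree of freedom between the libraries was 8.98, so they are not 1 library deposited in duplicate. No test between groups was made. GENCODE 44 held 33498 of the 33880 gene IDs. Its release and that of RefSeq may differ from the authors' annotation, and older symbols of the table (CTGF) were kept. Named genes were the 20 highest, the defining members and 4 highest others of each list, those nearest to 1 RPKM, TOX3, and further list members by level. A few genes that this rule takes are not reported here. The members and lists were chosen with earlier results of these data known. Alternatives were other detection levels, rescaling, other orders and each library left out. Promoters with any start were added after seeing the data. Python 3.11.15, numpy 2.4.6, scipy 1.17.1, pandas 2.3.3 and matplotlib 3.10.9 were used.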

Additional observations from a re-analysis of the deposited data

How the results depend on the processing

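The number of detected genes depended on the level required. It was 6767 at 5 RPKM in both libraries, against 11680 at 1 RPKM, and the detected list members were then 163 instead of 266. When protein-coding genes were ordered by recovered reads instead of RPKM, 10 of the 20 most abundant genes kept their place among the 20, and COL1A1, with 231269 and 245666 reads, came second to MT-CO1. With a single library, 12185 to 12232 genes and 268 to 270 list members were detected, and 19 of the 20 genes were kept in each case. Of 154 other counts under the alternatives, 131 stayed within 1.5 times. Of the other 23, 12 came with 5 RPKM, 7 with a minimum of 10 reads, 3 with rescaling of the libraries to a common sum and 1 with 0.5 RPKM. The rescaling also lowered the cutoff, because a value of 1 was still required while 1 RPKM became 3.64 and 3.655. With it, 14913 genes were detected. With every start of a gene counted, a choice added after seeing the data, the pyrimidine start was found in 73.0% of ribosomal protein genes, against 5.25% of all.

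Depth limits the low genes: at 3 reads the level of TOX3 is already 0.0336 RPKM in replicate 1. No paired analysis was possible because no groups were compared.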

Other observations

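Outside the protein-coding genes, 560 of 8432 long noncoding RNA genes were detected (6.64%, against 34.5% of all genes). The highest were host genes of small nucleolar RNAs and growth-linked transcripts: C6orf48 had 160 and 153 RPKM, SNHG5 had 80.2 and 88.1 RPKM and GAS5, which accumulates when growth is arrested, had 82.7 and 83.3 RPKM. MIR503HG, the host of a microRNA cluster, had 48.3 and 61.6 RPKM. NORAD, which binds PUMILIO proteins, had 46.0 and 39.3 RPKM, and the nuclear RNAs MALAT1 and NEAT1 had 31.0 and 39.8 RPKM and 34.7 and 34.5 RPKM. GAS5 and NEAT1 differed less between the replicates than MALAT1 did. Pseudogenes gave 493 detected genes of 5710 (8.63%, also below the 34.5% of all genes), and protein-coding genes held 96.9% of the reads in both libraries.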
